A study of Mus musculus with 3 samples.

Results

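Thumpd1, L3hypdh and Ccdc68 are 3 mouse genes for intracellular proteins. Their signal lay mostly on one side of a comparison between cultured cells with and without Pim1, labelled as mouse aortic endothelial cells. The 3 genes were chosen by their extreme log2 ratios in that comparison, so their ratios are given below as a description, without a test. All array probes carrying these gene names were used: 4 of the 41174 probes, for 3 of the 19757 genes that could be named. Thumpd1 had 2 probes at different places, and L3hypdh (named 2810055F11Rik on the array) and Ccdc68 had 1 each.

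Pim1 encodes a serine/threonine kinase. Each of 3 two-colour arrays carried RNA of FVB/N Pim1 knockout cells labelled with Cy5 (red) beside RNA of FVB/N wildtype cells labelled with Cy3 (green). The cells, labelled as mouse aortic endothelial cells (MAEC) of female donors aged 12 weeks, had grown on gelatine-coated dishes in medium with serum, and RNA was isolated 24 hours after seeding. The labels called the arrays biological replicates but did not say whether cells or RNA of several animals were pooled, so p-values speak only for the spread between arrays, and the number of arrays limits the precision. Every ratio below is knockout over wild type. The knockout always carried the red dye, so a dye effect and a genotype effect cannot be told apart.

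THUMPD1 is an RNA-binding adaptor with a THUMP domain that helps the acetyltransferase NAT10 to acetylate cytidine in transfer RNA. L3HYPDH is the dehydratase that breaks down trans-3-hydroxyproline, a modified proline found in collagen, above all in the type IV collagen of basement membranes. CCDC68 is a coiled-coil protein of the subdistal appendages of the centriole, where microtubules are anchored.

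The probe sequences show which stretch of each gene was read, and the pair for Thumpd1 matters most because the 2 gave different answers. All are taken from the deposited array files and are printed in lower case from 5′ to 3′. The Thumpd1 downstream probe lay at chr7:119506614-119506673 on the minus strand of mouse build mm8, the Thumpd1 upstream probe at chr7:119509501-119509560 on the same strand, and the L3hypdh probe at chr12:72992264-72992323 on the minus strand. Because the gene lies on the minus strand, the lower coordinate is the downstream one. The 2 Thumpd1 probes shared no base and left a gap of 2827 bases.
Thumpd1 downstream probe: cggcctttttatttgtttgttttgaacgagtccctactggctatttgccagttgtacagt
Thumpd1 upstream probe: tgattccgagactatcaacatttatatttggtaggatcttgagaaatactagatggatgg
L3hypdh probe: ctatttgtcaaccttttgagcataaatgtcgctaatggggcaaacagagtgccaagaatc
The downstream Thumpd1 probe, the L3hypdh probe and the Ccdc68 probe were designed on curated transcript records that matched the RefSeq genes. The upstream Thumpd1 probe was designed on a predicted record and was matched by symbol alone. Whether each probe falls in coding sequence or in an untranslated region was not determined here.

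At its downstream probe, Thumpd1 was bright in the knockout and dim in the wild type on each array. Its processed intensity, which is the scanner software's value after background subtraction and dye normalisation, was 4611, 3876 and 3680 in the knockout. In the wild type it was 102, 72.5 and 104 on the same arrays. The ranges did not overlap, and the lowest knockout value lay far above the highest wild-type value. After background correction and loess normalisation the log2 ratios of the 3 arrays were 4.48, 4.70 and 4.13. Their mean of 4.44 ± 0.29 (SD, n = 3) is a ratio of 21.6-fold, the 6th highest among the 13469 genes tested.

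The upstream Thumpd1 probe gave no such separation. Its processed intensity was 90.3, 73.6 and 37.0 in the knockout and 80.1, 83.5 and 46.4 in the wild type, so the ranges overlapped. The log2 ratios were 0.06, −0.10 and −0.10, with a mean of −0.05 ± 0.09 (SD, n = 3). The difference between the log2 ratios of the 2 probes was 4.43, 4.80 and 4.22 on the 3 arrays, a mean of 4.48 ± 0.29 (SD, n = 3), larger than the spread between arrays. What is said here of Thumpd1 is therefore limited to its downstream probe.

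The upstream probe was a dim probe in both channels, though called well above background on all 3 arrays. The red spot was only 2.27, 2.04 and 1.68 times its local background, and the green spot 4.33, 5.34 and 3.33 times. Among the 2981 tested probes whose mean log2 intensity lay within 0.25 of this probe's, 110 had a mean log2 ratio of at least 1 in size, and the largest was 1.97. That largest size is limited by the window itself. The normexp offset keeps a dim channel from falling far below such a mean intensity, so a ratio like that of the downstream probe could not occur there. The counts therefore cannot decide whether low signal hid a difference at the upstream probe.

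**Figure D1:**
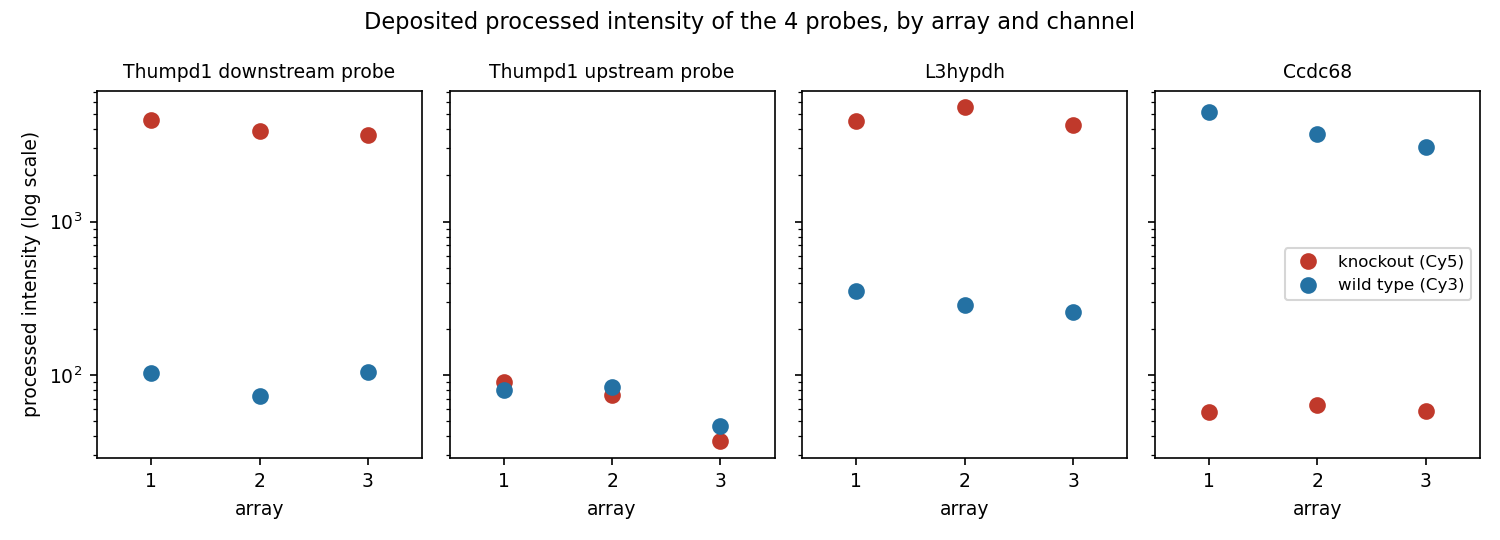
Processed intensity (logarithmic axis) of the 4 probes on arrays 1 to 3, with knockout RNA in red and wild-type RNA in blue and 1 point per spot. The channels lie far apart for the Thumpd1 downstream probe, L3hypdh and Ccdc68, and overlap for the Thumpd1 upstream probe, whose log2 ratios averaged −0.05.

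L3hypdh was bright in the knockout as well, over a wild-type signal that was plainly present. Its processed intensity was 4536, 5576 and 4264 in the knockout and 353, 288 and 257 in the wild type. The ranges did not overlap. The log2 ratios were 3.31, 3.93 and 3.53, with a mean of 3.59 ± 0.31 (SD, n = 3), or 12.1-fold, the 11th highest of the genes tested. The green spot stood at 14.6, 17.8 and 13.8 times its local background.

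Ccdc68 ran the other way, at a probe on chr18:70094609-70094668 on the plus strand of mm8. Its processed intensity was 57.3, 64.0 and 58.7 in the knockout and 5179, 3719 and 3083 in the wild type. The wild-type values were all far above the knockout values, and the knockout values were close together. The log2 ratios were −5.27, −4.67 and −4.44, with a mean of −4.80 ± 0.43 (SD, n = 3), which is 27.8-fold lower in the knockout and the 7th lowest of the genes tested.

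None of the 3 genes was off by the scanner software's criterion. Each of the 4 probes was called well above background with either dye on every array, with 1 spot per array, no outlier flag and no saturation. The lowest processed intensity of any probe so called was 19.5, 19.5 and 21.2 in the red channel and 14.5, 10.7 and 13.0 in the green channel, below the dim side of all 3 genes. The Ccdc68 spot in the knockout channel was nevertheless only 1.73, 1.87 and 1.80 times its local background. Cells mixed in different proportions and a different amount of RNA per cell cannot be told apart in such bulk samples.

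The size of these ratios moved with the processing, and their direction did not. With a normexp offset of 0, which changes the background step alone, the means were 5.09 for the Thumpd1 downstream probe, 3.85 for L3hypdh and −5.60 for Ccdc68. With no background subtraction they were 4.87, 3.78 and −5.03. With the scanner software's own log ratio the means were 5.46 for the Thumpd1 downstream probe, 4.00 for L3hypdh and −6.02 for Ccdc68. Over 11 other ways of processing, leaving out each array included, the Thumpd1 downstream probe ranged from 4.30 to 5.46, L3hypdh from 3.42 to 4.00 and Ccdc68 from −6.02 to −4.56. The upstream Thumpd1 probe stayed between −0.11 and −0.02.

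**Figure D2:**
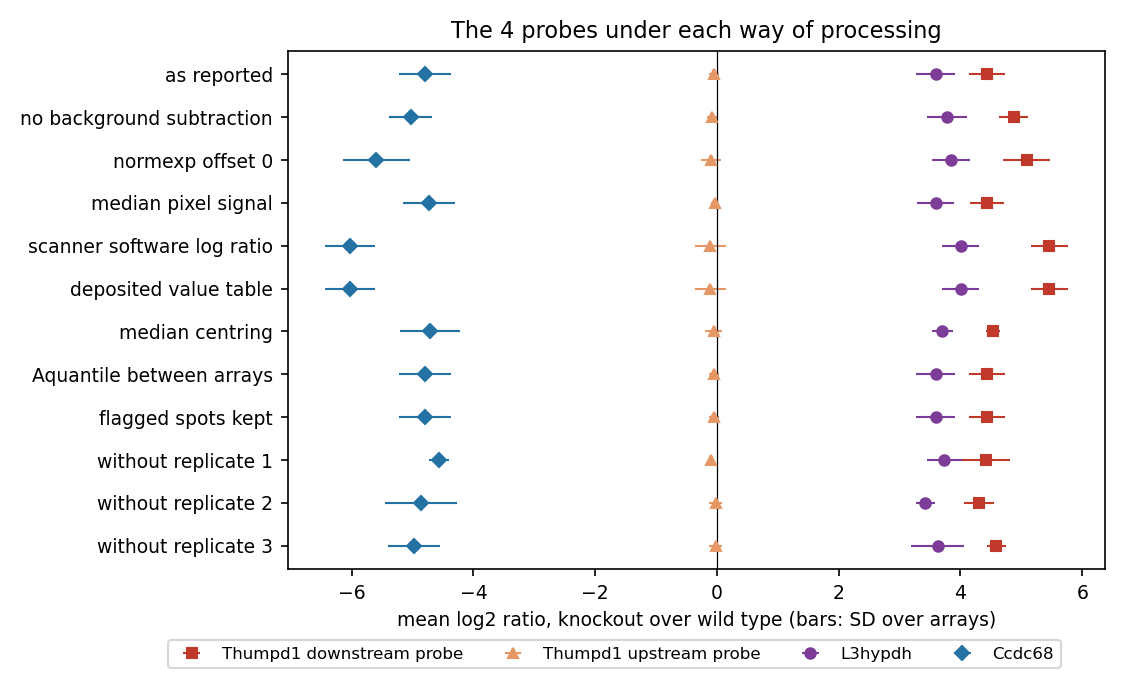
Mean log2 ratio of the 4 probes under each of 12 ways of processing, with bars for the SD over arrays. The Thumpd1 downstream probe and L3hypdh stayed positive, Ccdc68 stayed negative and the Thumpd1 upstream probe stayed between −0.11 and −0.02, while offset 0 and the software ratio moved Ccdc68 and the Thumpd1 downstream probe outward.

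Because Thumpd1 was chosen for an extreme log2 ratio, the width of its spread beside all genes is a description and not a test. Of the genes, 5741 had at least 2 tested probes that did not overlap, and the spread of log2 ratios within a gene had a median of 0.22 and a 95th percentile of 0.82. A spread at least as wide as that of Thumpd1 occurred in 3 genes, Thumpd1 included. The others were Col6a3, a collagen VI chain, at −6.07 and −0.86, and Xist, the non-coding RNA of X inactivation, whose probes were all lower in the knockout. In 31 genes a probe had a log2 ratio of at least 3 in size, and in 15 of them all non-overlapping probes reached at least 1.5 in the same direction.

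In 7 of those 31 genes another probe stayed under 0.5 in size: Cdh13, Cxcl12, Ddx3y, Itgb4, Pdlim4, Syt13 and Thumpd1. These were named after their values were seen. Of these 7, only Thumpd1 and the chemokine gene Cxcl12, whose probes gave −3.04 and 0.21, had every spot of both probes called well above background.

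**Figure D3:**
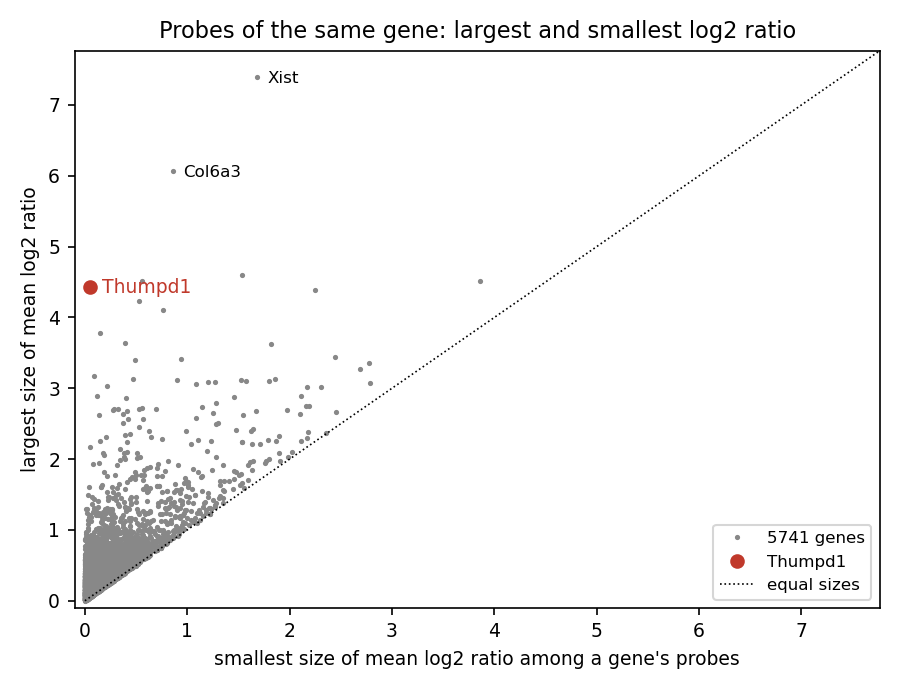
For each of 5741 genes with non-overlapping tested probes, the largest (vertical) against the smallest (horizontal) size of the mean log2 ratio among its probes, 1 point per gene, with a dotted line of equal sizes. Thumpd1 lies at the left edge, with 4.44 at one probe and a size of 0.05 at the other.

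A few facts of the whole series bear on what follows. The share of probes well above background was 54.0% to 57.3% for knockout RNA and 58.6% to 62.6% for wild-type RNA. Array 1 stood apart, with r = 0.68 and 0.70 to the other arrays against 0.91 between arrays 2 and 3, over 25090 probes. Pim1 itself was at −0.97, −1.16 and −0.99, a mean log2 ratio of −1.04 ± 0.11 (SD, n = 3, limma adjusted p = 0.00301), or 2.05-fold lower. Its knockout signal was well above background on all 3 arrays, and whether its probe lies in the deleted part of the gene was not determined here. Xist was at least 168-fold lower in the knockout, where its signal was well above background on no array. The Y-linked genes Eif2s3y and Ddx3y were at least 28.1-fold and 12.1-fold higher in the knockout and were above background with wild-type RNA on no array, although both genotypes were labelled female. These bounds set the bright channel against the lowest signal called above background. A difference in sex and the Pim1 genotype cannot be told apart here.

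Cell type markers differed between the channels too. On all arrays, 5 of 15 endothelial markers passed the background criterion with knockout RNA and 7 with wild-type RNA, while Pecam1, Cdh5, Tie1 and Erg passed it on no array. The summed processed intensity of that list was 10250 to 17270 in the knockout and 5810 to 7332 in the wild type. Of 7 tested, Eng and Egfl7 were higher, at 2.51 and 1.42, and Fli1 lower, at −0.87, with a median of 0.18. Fibroblast markers summed to 303200 to 351400 against 242000 to 340600, and of 8 tested, 6 were higher and 1 lower in the knockout. Mesothelial and epithelial markers summed to 7440 to 9598 in the knockout against 85320 to 142300 in the wild type, and 6 of 8 tested were lower and none higher, with a median of −1.40. Krt19 and Msln were at −4.12 and −3.41, Upk3b at −0.40, and Lrrn4 and Wt1, which did not pass, at −0.26 and 0.26. Epcam, a defining epithelial marker, was not well above background on any array. Smooth muscle markers summed to 36830 to 55260 against 47490 to 69520 (0 higher and 1 lower of 6), and macrophage markers to 2411 to 3359 against 4468 to 6631 (0 higher and 2 lower of 4), with Adgre1 and Itgam above background on no array. The part of these markers in the ratios of Thumpd1, L3hypdh and Ccdc68 was not tested.

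Genes of transfer RNA modification, to which THUMPD1 belongs, mostly did not pass the test. Over all genes, 2704 of 13469 had a limma adjusted p under 0.05, which is 20.1%, with 8.65% higher and 11.4% lower in the knockout and a median log2 ratio of −0.02. Of the calls 43.1% were higher, and 55.5% with median centring in place of loess. In the list of 67 genes for THUMP proteins, tRNA acetylation and other tRNA base changes, 65 were tested. At their brightest probes 2 rose and none fell (3.08%), and the median was 0.11. At another probe, Trmt10a and Elp6 were lower, at −0.68 and −0.38 (limma adjusted p = 0.0387 and 0.0479).

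Nat10, which encodes the partner of THUMPD1, did not pass the test. Of the other THUMP genes named here, Thumpd2 did not pass and Thumpd3 passed at 1 of 3 probes. Nat10, the acetyltransferase itself, was at 0.67, −0.26 and −0.37 on the 3 arrays, so array 1 opposed the others, and the mean was 0.01 ± 0.57 (SD, n = 3, limma adjusted p = 0.98). Thumpd2 and Thumpd3, which carry the same RNA-binding domain, were at 0.23 ± 0.19 and 0.22 ± 0.13 (SD, n = 3, limma adjusted p = 0.238 and 0.202) at their brightest probes. The other Thumpd3 probes were at 0.54 and 0.12 (limma adjusted p = 0.0172 and 0.464). Lcmt2, which acts in wybutosine synthesis, rose by 0.64 ± 0.14 (limma adjusted p = 0.015), and Trmu, which thiolates mitochondrial tRNA, by 0.46 ± 0.13 (limma adjusted p = 0.036). Without array 1, on arrays 2 and 3 alone, 19 genes of the list passed (29.2%, beside 42.2% of all genes at that setting). Thumpd2 was among them at 0.33 (limma adjusted p = 0.0255), and Nat10 turned to −0.32 (limma adjusted p = 0.0319). Without array 2 or array 3 none did, beside 5.41% and 4.63% of all genes.

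Genes of proline and hydroxyproline metabolism are the setting of L3HYPDH. Of 30 listed genes 28 were tested, 10 rose and 2 fell (42.9%, beside 20.1% of all genes), and the median was 0.15. The largest ratio was that of Plod2, which hydroxylates lysine in collagen rather than proline, at 1.65 ± 0.21 (SD, n = 3) or 3.13-fold (limma adjusted p = 0.00122). Plod1, another lysyl hydroxylase, rose by 0.72 (limma adjusted p = 0.00893). Of the enzymes that make hydroxyproline in collagen, P3h1, which forms the 3-hydroxyproline, rose by 0.86 ± 0.20 (limma adjusted p = 0.00834). The prolyl 4-hydroxylase subunits P4ha3 and P4ha1 rose by 0.86 ± 0.27 and 0.72 ± 0.02 (limma adjusted p = 0.0131 and 0.00715). P3h2, the prolyl 3-hydroxylase of type IV collagen, fell, with no array on which its knockout signal was well above background. Its difference is therefore a bound of at least 1.94-fold (limma adjusted p = 0.00627), from its wild-type signal against the lowest signal called above background.

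Further genes of the list gave mixed values. Aldh4a1, whose enzyme forms glutamate at the end of proline breakdown and also acts in that of 4-hydroxyproline, rose by 0.78 ± 0.49 (SD, n = 3, limma adjusted p = 0.0482). Oat, Grhpr, Aldh18a1 and P4hb also rose, by 0.79, 0.75, 0.69 and 0.45 (limma adjusted p = 0.0275, 0.0313, 0.0173 and 0.0289). Prodh, which opens the breakdown of proline, was at −0.56 ± 0.61 (SD, n = 3, limma adjusted p = 0.165). Without array 1 it was at −0.91 (limma adjusted p = 3.09e-07), a value that rests on arrays 2 and 3 alone. Pepd, which releases proline and hydroxyproline from dipeptides, fell by 0.49 ± 0.23 (limma adjusted p = 0.0495). The count of the list fell from 12 to 1 without array 2 and to 2 without array 3, and was 17 without array 1 (3.57%, 7.14% and 60.7%). Of all genes 5.41%, 4.63% and 42.2% passed at the same settings. Plod2 passed in each of these. Of 8 fibroblast markers, 6 were higher and 1, Col1a2, was lower in the knockout, with a median log2 ratio of 2.26. Their part in the list's values was not tested.

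Genes of the centriole appendages and of microtubule anchoring are the setting of CCDC68. Of 34 tested, 2 rose and 3 fell at their brightest probes (14.7%, beside 20.1% of all genes), with a median of −0.02. Odf2, Ccdc120 and Nin, which build the same appendages, were at −0.02 ± 0.18, 0.03 ± 0.01 and −0.02 ± 0.25 (SD, n = 3, limma adjusted p = 0.91, 0.845 and 0.924). Camsap3, which caps microtubule minus ends, rose by 1.27 ± 0.45 (limma adjusted p = 0.0112), and Ccp110, a cap of the centriole's distal end, rose by 0.57 ± 0.25 (limma adjusted p = 0.0362). The microtubule polymerase Ckap5 was at −0.64 ± 0.29, the plus-end protein Clasp1 at −0.50 ± 0.24 and Ccdc61 at −0.48 ± 0.12 (SD, n = 3, limma adjusted p = 0.0319, 0.0475 and 0.0305). With the mean of a gene's probes, Ckap5 was at −0.29, Clasp1 at −0.18 and Ccp110 at 0.31, and none of them passed (limma adjusted p = 0.125, 0.253 and 0.113). The other Ckap5 probes were at −0.05 and −0.18, and the other Ccp110 probe was at 0.05. Of 6 Clasp1 probes, 2 passed, at −0.63 and −0.50. Cep97, at −0.17 and not called at its brightest probe, passed at another, at 1.13 (limma adjusted p = 0.00318). Sclt1 and Cep164, also not called at their brightest probes, passed at another, at 0.46 and −0.39 (limma adjusted p = 0.0265 and 0.0456). The count of the list was 11 without array 1 (32.4%, beside 42.2% of all genes) and 0 without array 2 or array 3, where 5.41% and 4.63% of all genes passed.

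**Figure D4:**
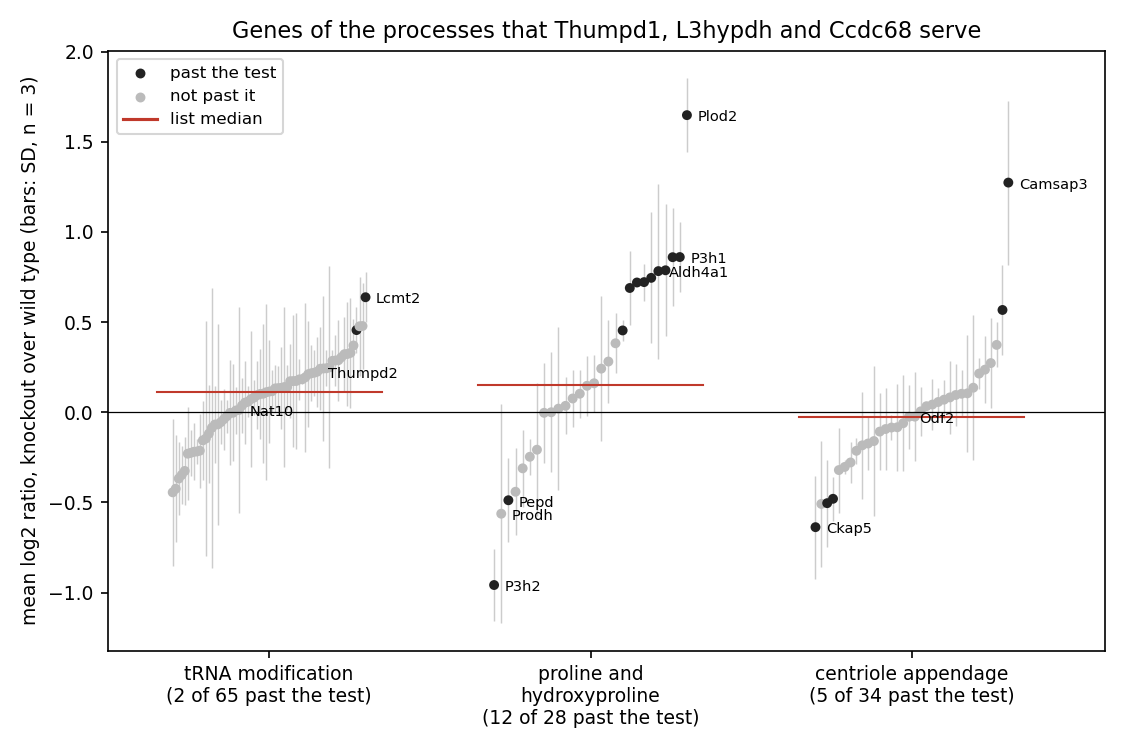
Mean log2 ratio (SD bars, n = 3) of the tested genes in the 3 lists, sorted within each, with genes past the limma threshold in black, others in grey and the list median as a red line. Plod2 at 1.65 and Camsap3 at 1.27 lie highest and the partners Nat10 and Odf2 near 0, while P3h2 is drawn at its fitted value although only a bound of at least 1.94-fold lower holds for it.

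The genes beside the 3 loci were read in the same way. Within 500000 bases of the probes in mm8, 28 named genes were on the array, 13 were tested, 3 rose and 1 fell (30.8%, beside 20.1% of all genes), and the median log2 ratio was 0.30.

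Around Thumpd1, all 5 tested neighbours had a positive log2 ratio, with a median of 0.39, and 2 passed the test. Eri2, an exonuclease gene whose nearest probe lay 65921 bases away, was at 1.31, 0.91 and 0.76 and rose by 0.99 ± 0.29 (SD, n = 3, limma adjusted p = 0.00937). Its other probes were at 0.60 and 0.62 (limma adjusted p = 0.0154 and 0.0184), so it rose at all 3. Rexo5, another exonuclease gene, rose by 0.40 ± 0.06 (limma adjusted p = 0.0406) but lost the call without array 2, without array 3 and with the software ratio or no background subtraction, among other settings. Eri2 also lost its call without array 2 or array 3. Dcun1d3, Lyrm1 and Tmem159 were at 0.30, 0.39 and 0.35 and did not pass (limma adjusted p = 0.127, 0.0519 and 0.172). Without array 1, on arrays 2 and 3 alone, Dcun1d3 passed at 0.39 (limma adjusted p = 0.00825). The nearest gene, Acsm4, 4875 bases downstream, was too dim to be tested.

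L3hypdh starts back to back with Jkamp, which encodes a membrane protein of the endoplasmic reticulum. In GRCm38.p6, L3hypdh spans chr12:72069518-72085433 and Jkamp chr12:72085548-72101527, so 114 bases lie between their starts. The stretch is shown because both genes are transcribed away from it. It was read from RefSeq promoter sequences of GRCm38.p6 at chr12:72085434-72085547 and is printed on the minus strand, that of L3hypdh, with capitals at CCGCCC, the reverse complement of the GC box GGGCGG.
Gap between L3hypdh and Jkamp: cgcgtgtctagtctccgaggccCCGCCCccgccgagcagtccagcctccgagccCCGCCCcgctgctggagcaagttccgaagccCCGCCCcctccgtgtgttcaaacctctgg
The GC box occurred 3 times, and 13% of 32851 promoter windows of that length held at least 1 on either strand. The stretch was rich in G and C, at 71.9%. It held 12 CG dinucleotides, beside a median of 2 in the windows, and 8.03% of the windows held at least as many. On neither strand was there a match to the CCAAT box, held by 15.6% of the windows, or to the TATAA box, held by 11.5%. The same was true of the E-box CACGTG, held by 2.17%, and of the ETS motif TTCCGG, held by 3.94%. A match is a description of letters and not of a bound factor.

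Jkamp did not pass the test at either of its probes. It was at −0.26, −0.14 and −0.10, with a mean of −0.17 ± 0.08 (SD, n = 3, limma adjusted p = 0.288), and its other probe was at −0.34 (limma adjusted p = 0.0786). Gpr135, an orphan receptor gene, whose probe lay 3784 bases from that of L3hypdh, rose by 0.99 ± 0.25 (SD, n = 3, limma adjusted p = 0.0075), and lost the call without array 2. The gene model of Gpr135 overlaps that of L3hypdh by 1584 bases in GRCm38.p6 on the same strand. Whether the probe lies in that overlap was not determined, so its signal is not assigned to Gpr135 alone. Daam1, Rtn1 and Pcnx4 were at 0.30, −0.06 and −0.33 and did not pass at their brightest probes, but a second Pcnx4 site passed at both of its overlapping probes, at −0.56 and −0.54 (limma adjusted p = 0.0467 and 0.0373).

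One neighbour of Ccdc68 passed the test. Rab27b, a small GTPase of vesicle secretion whose nearest probe lay 12421 bases away, was at its brightest probe at −1.98, −1.75 and −1.14, all below 0. The mean of −1.62 ± 0.43 (SD, n = 3, limma adjusted p = 0.0047) is 3.08-fold lower, and kept the call without any 1 array. Its other probe was at −0.72 (limma adjusted p = 0.0171). Tcf4, a transcription factor gene on the far side, was at 0.46 (limma adjusted p = 0.197). Without array 1 it was at 0.78 (limma adjusted p = 3.83e-06), a value that rests on arrays 2 and 3 alone. The neighbour count was 10 without array 1, 1 without array 2 and 2 without array 3 (76.9%, 7.69% and 15.4%, beside 42.2%, 5.41% and 4.63% of all genes).

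**Figure D5:**
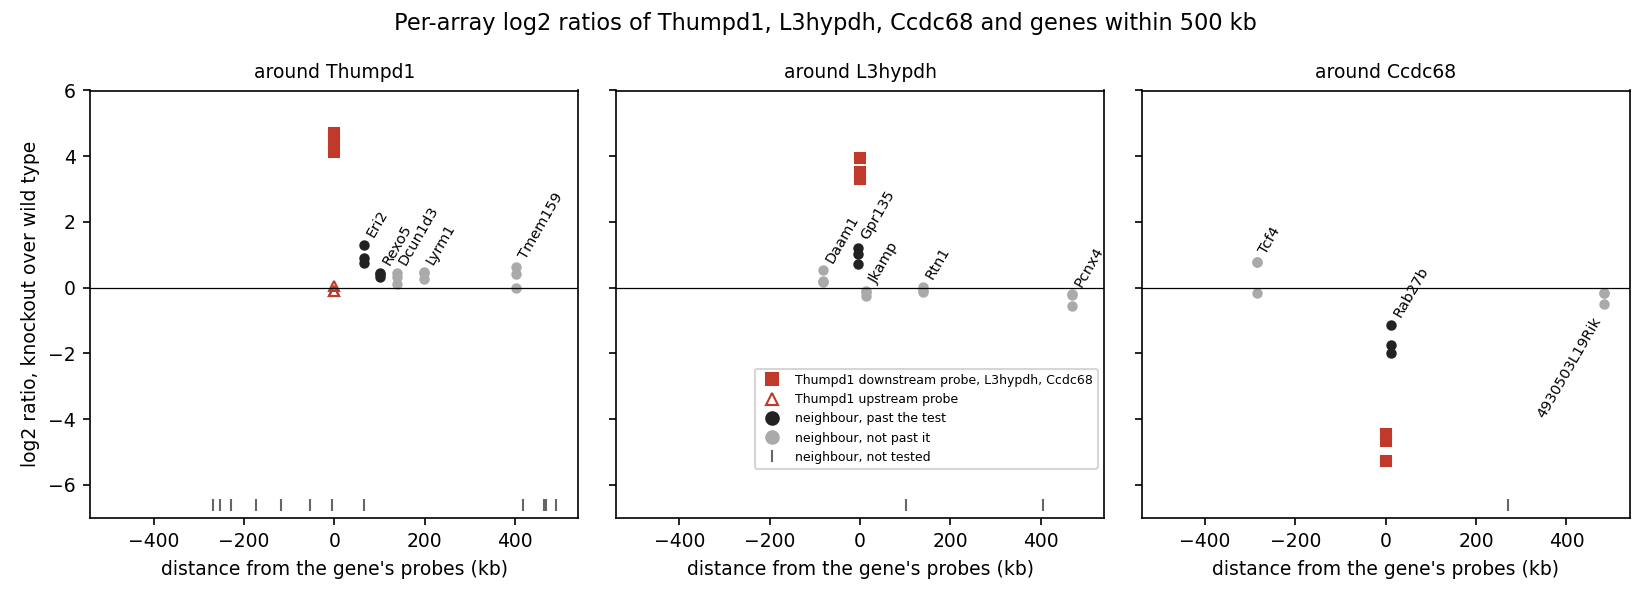
Log2 ratio of each array (1 point per array) for Thumpd1, L3hypdh, Ccdc68 and genes within 500 kb, against the distance in kb from the gene's probes. The neighbours lie between −1.98 and 1.31, nearer 0 than the squares of the Thumpd1 downstream probe, L3hypdh and Ccdc68, and ticks mark neighbours too dim to be tested.

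Of the 12544 named autosomal genes, those with the most similar log2 ratios were sought for each probe, by the Euclidean distance over the 3 arrays. Svep1, Il1rl2 and Serpina3g lay closest to the Thumpd1 downstream probe, at distances of 0.46, 0.47 and 0.75. Frzb, Tbx1 and Tbx3 lay closest to L3hypdh (0.15, 0.39 and 0.54), and Sfrp2, Lhx9 and Ndnf to Ccdc68 (0.29, 0.53 and 0.78). For the Thumpd1 upstream probe they were Amh, Olfr1362 and Ghrl, dim genes at distances of 0.01, 0.02 and 0.02.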

How the data were processed

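Thumpd1, L3hypdh, Ccdc68 and the gene lists were chosen with earlier results of these data known. The deposited scanner files held spot and background intensities, background-subtracted and dye-normalised processed intensities, and log10 ratios. Per the file headers, the software was Agilent Feature Extraction, and the submitters' processing notes give version 9.5.3.1. The deposited value table's log10 ratios were identical to the software's (median 0 on each array), so scale and direction were known. The 3 arrays shared 1 slide and 1 scan.

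Mean intensities were corrected with normexp (offset 50, which pulls dim ratios towards 0) and turned to log2 ratios with loess within arrays, using limma 3.58.1 in R 4.3.3. Control spots (1639 per array) were weighted 0 and outlier spots (121 to 140) dropped. A probe was tested where either channel was called well above background on 2 or more arrays (25090 probes), by lmFit and eBayes of the mean against 0, with p-values adjusted by Benjamini-Hochberg over those probes, at 0.05. The brightest tested probe stood for its gene, and 276 probes against their gene's strand were left out of gene values. Probes were named through RefSeq GRCm38.p6: 24375 by accession, 115 by another accession, 6234 by symbol, 2391 by synonym, and 8059 had no name. The test was tried on simulated intensities. Named genes were every probe of the 3 genes, Pim1, and the genes of each list called at their brightest probes, with other fixed list genes. The nearest and the called neighbours and the 3 most similar genes were named too. Alternatives were other background corrections, normalisations, filters, variance models, thresholds, probe rules and windows, and leaving out each array.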

Additional observations from a re-analysis of the deposited data

How the results depend on the processing

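The study has 1 group of two-colour arrays, each of which sets both genotypes side by side. The test of the log2 ratios within arrays against 0 was therefore already paired by array. Mean log2 ratios moved beyond 1 SD for the Thumpd1 downstream probe with no background subtraction (4.87), offset 0 (5.09) and the software ratio or the deposited table (5.46 each), for L3hypdh with the last pair (4.00 each), and for Ccdc68 with offset 0 (−5.60) and that pair (−6.02 each). Leaving out an array gave 4.30 to 4.59, 3.42 to 3.73 and −4.97 to −4.56. The transfer RNA list had 1 call (1.54%) with offset 0, the software ratio, the deposited table, median centring or an intensity trend. It had 0 at an adjusted p under 0.01. The centriole list had 3 calls (8.82%) with offset 0, no filter, an intensity trend or the mean of probes. It had 1 (2.94%) with the software ratio, the deposited table or median centring, and 0 at 0.01. Of all genes 19.7% passed with offset 0, 12.6% with no filter, 15.6% with an intensity trend and 18.6% with the mean of probes. That share was 18.7% with the software ratio or the deposited table, and 13.8% with median centring. The proline list had 9 calls (32.1%) with the software ratio or the deposited table, and 10 (35.7%) with offset 0 or an intensity trend. It had 11 (39.3%) with median centring and 8 of 30 (26.7%) with no filter. At 0.01 the proline list had 5 calls (17.9%) and all genes 953 (7.08%). With a window of 1000000 bases 11 of 30 tested neighbours passed (36.7%, beside 20.1% of all genes), and with 250000 bases 4 of 9 (44.4%). Within 500000 bases 6 of 13 passed (46.2%) with the mean of probes and 5 of 28 (17.9%) with no filter. With median centring, an intensity trend or a threshold of 0.01 it was 3 of 13 (23.1%). Leaving out an array gave 0 to 19, 1 to 17 and 0 to 11 calls in the 3 lists, 1 to 10 neighbours and 617 to 5557 genes, the highest each time without array 1. Leaving out an array moved Nat10 between −0.32 (reversed, without array 1) and 0.205. Of the named values, 21 lost their call without array 2 and 19 without array 3, and Thumpd2, Prodh, Dcun1d3 and Tcf4 gained one without array 1. The cause was not tested. Low signal over background limits the upstream Thumpd1 probe and Ccdc68 in the knockout.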
